A study of Mus musculus with 8 samples.

Results

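The 10 genes described here are established markers of the intestinal tuft cell, taken as a list of names that no measured value defines, though drawn up with earlier results of these data known: Pou2f3, Trpm5, Rgs13, Dclk1, Avil, Sh2d6, Alox5ap, Ptgs1, Hpgds and Il25. All 10 were among the 53801 genes of the count table, and 9 of them passed the filter on low counts, Il25 being the exception. They were measured in Paneth cell libraries, so they report on RNA of a cell type that the sort was not meant to collect. Viable EpCAM+ Cd24+ cells of small intestinal crypts were sorted by FACS, 300 cells per library, from 4 β-catGOF; Mll1+/- mice (controls 1 to 4) and 4 β-catGOF; Mll1-/- mice (knockouts 1 to 4), and a CD45 antibody was part of the stain. All 8 libraries thus come from mice with β-catGOF, a stabilised β-catenin that keeps Wnt signalling on. Mll1, a histone methyltransferase encoded by Kmt2a, has 1 remaining allele in recombined cells of the controls and none in those of the knockouts. The alleles were recombined with tamoxifen, given on 3 consecutive days to mice 4 to 6 wk old, by Lgr5-EGFP-IRES-CreERT2, which is active in Lgr5+ crypt stem cells, and the tissue was taken 10 d later. The labels give 1 mg tamoxifen, and the study's methods a dose by body weight. The study describes recombination with this Cre as a mosaic, in which recombined crypts lie beside non-recombined ones. Its methods name no gate on recombined cells. From staining it reports that crypt cells of the knockouts, Paneth cells among them, lacked Mll1 at the time of sorting. The share of non-recombined cells in the libraries was not measured. The genotypes are those of the sample labels and of the study's results, while its methods paragraph on the sort names Mll1 flox/+ and Mll1 flox/flox mice without β-catGOF; the study's methods call the mice littermates, and the labels do not say which.

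Tuft cells are rare chemosensory cells of the epithelium, named for a brush of long microvilli, and they arise from crypt stem cells under the transcription factor Pou2f3. They sense metabolites of worms, protists and bacteria through G protein-coupled receptors, and the signal opens the cation channel Trpm5. They answer with the cytokine Il25, with leukotrienes and prostaglandins, and with acetylcholine, and Il25 acts on group 2 innate lymphoid cells in the circuit that expels helminths. Cd24 is present on tuft cells and enteroendocrine cells as well as on Paneth cells.

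Library totals lay between 13037832 and 14380240 counts. Knockout 3 stood apart, with 19662 genes holding at least 1 count against 22623 to 26074 in the other libraries, a mitochondrial share of 2.04% and the smallest normalization factor, 0.632, so values without it are given beside the main results. The numbers in the labels fall into 2 runs, here library set 1 (controls 1 and 2, knockouts 1 and 2) and library set 2 (controls 3 and 4, knockouts 3 and 4). What the runs stand for is not stated, the animal numbers are lower in set 1 as well, and cohort and library run cannot be told apart. The sets also differed in the number of genes holding at least 1 count, 25103 to 26074 in set 1 and 19662 to 23351 in set 2. The part of this in the differences between library sets was not tested. Kmt2a received 719, 469, 268 and 284 counts in the controls and 523, 447, 328 and 468 in the knockouts (log2 fold change −0.06, SE 0.24, adjusted p = 0.995). Counts over the whole gene did not separate the genotypes and therefore do not check the labels; control and knockout below mean the libraries labelled so.

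Tuft marker RNA made up a small share of every library, and 9 of the 10 markers had counts in all 8, Il25 being at 0 in 3 of them. Together they received 10772, 9693, 4358 and 3706 counts in the controls and 8206, 5107, 1214 and 2432 in the knockouts, which is 0.0776% of the total in control 1 and 0.009% in knockout 3. The summed level was 677, 771, 392 and 293 normalized CPM in controls 1 to 4 and 489, 294, 143 and 148 in knockouts 1 to 4, normalized CPM being counts scaled to a common library size with TMM factors. Controls held 534 ± 227 and knockouts 269 ± 163 (SD, n = 4 each), a ratio of 1.99, and the groups overlapped. The log2 ratio of the means, knockout to control, was −0.99, and without knockout 3 −0.78. It ran from −1.45 without knockout 1 to −0.76 without control 2 with 1 library left out, and was −0.68 with scaling by total counts. Controls 1 and 2 were the highest pair for all 10 markers, knockout 4 was lowest for 5 and knockout 3 for 4. For Il25 the scaling alone placed control 2 above knockout 2, both at 8 counts. Library set 1 held 558 ± 211 and library set 2 244 ± 121 (SD, n = 4 each), a ratio of 2.28. In these bulk samples fewer tuft cells and less tuft RNA per cell cannot be told apart.

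**Figure D1:**
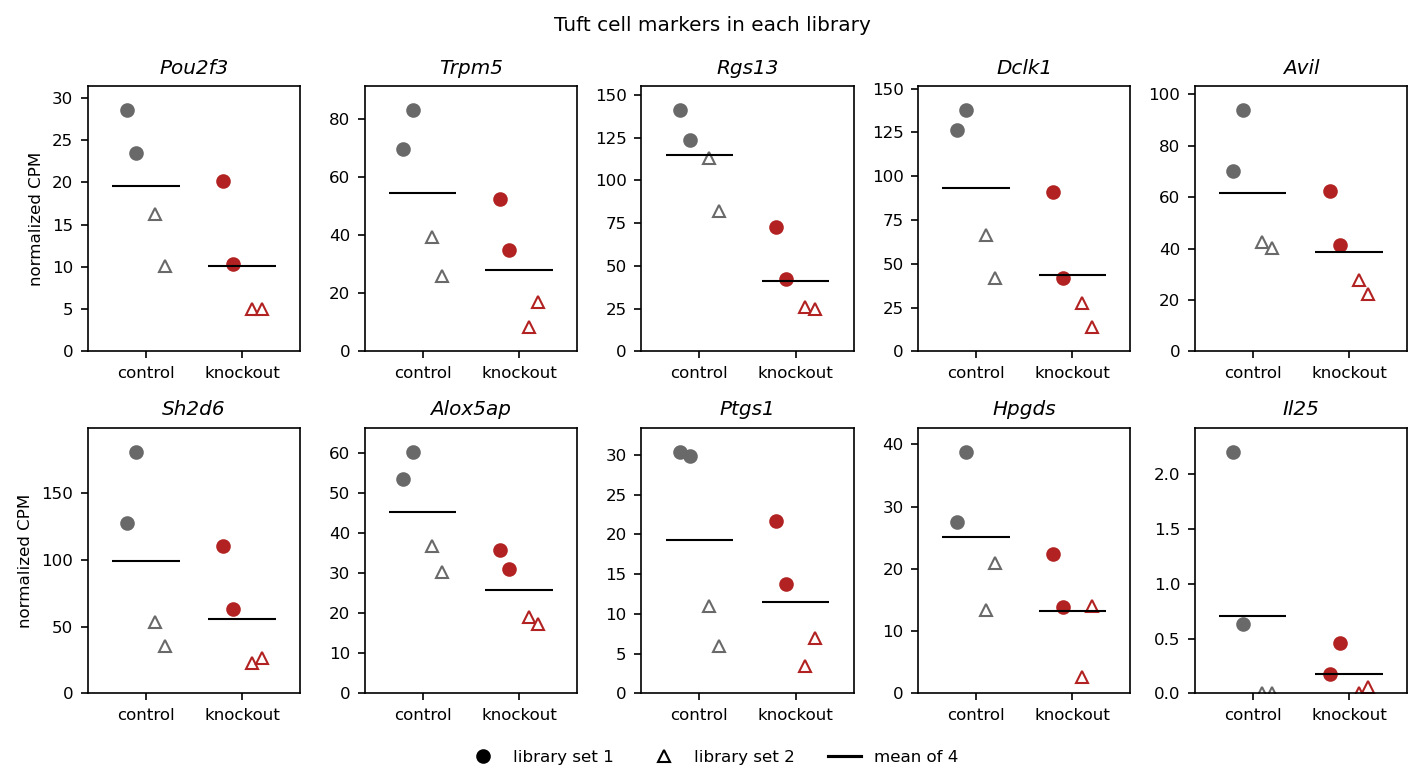
Normalized CPM (vertical axis, counts scaled to library size with TMM factors) of the 10 tuft cell markers in the 4 controls (grey) and 4 knockouts (red). Filled circles are library set 1, open triangles library set 2, and lines are means of 4; every Rgs13 value of the knockouts lies under every control, while the other 9 markers overlap between genotypes.

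Per length, Rgs13 and Sh2d6 were the most abundant of the 10, and Il25 the least. Mean FPKM over the 8 libraries (fragments scaled to exon length and to the same library sizes) was 47.2 ± 27.1 for Rgs13, 44.7 ± 32.5 for Sh2d6 and 25.03 ± 10.6 for Alox5ap (SD, n = 8). Avil followed with 14.8 ± 7.01, then Trpm5 with 6.46 ± 4.03, Pou2f3 with 4.82 ± 2.81, Dclk1 with 4.47 ± 2.99, Ptgs1 with 3.96 ± 2.75, Hpgds with 2.99 ± 1.69 and Il25 with 0.416 ± 0.704. Rgs13 exceeded Sh2d6 in 4 of 8 libraries, with a mean FPKM of 69.4 against 57.2 in controls and 25.01 against 32.2 in knockouts, and of 57.3 against 69.4 in library set 1 and 37.1 against 19.97 in library set 2, so neither grouping fixed the order. Alox5ap exceeded Avil, Avil exceeded Trpm5, and Hpgds exceeded Il25 in 8 of 8. Trpm5 exceeded Pou2f3 in 7 of 8, and each of the other 4 neighbouring pairs kept its order in 6 of 8. For scale, Lyz1, the lysozyme of Paneth cell granules, had a mean of 30337 FPKM.

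Over all 9 tested markers the fitted level was lower in the knockouts, but none passed the cutoffs (a log2 fold change of 0.5 or more in either direction with adjusted p ≤ 0.05, edgeR's quasi-likelihood test with Benjamini-Hochberg adjustment over 13439 genes). The log2 fold changes ran from −1.47 to −0.68 with a median of −0.91, against 0.0085 over all tested genes. A lower fitted level was found for 49.1% of all tested genes and a call for 0.186% (25 genes). At an unadjusted p under 0.05, 2 of the 9 were lower, Rgs13 and Alox5ap, against 2.53% of all tested genes in that direction and 6.88% in either. The count was 8 without knockout 1 (2.88% of tested genes), 6 without control 4 (2.36%), 1 without control 2 (1.87%) and 1 without knockout 4 (2.42%). DESeq2's Wald test, the tool of the study, called 1 marker, Rgs13 (adjusted p = 0.00309), and 1.03% of tested genes. In 1 of the 10, Rgs13, every knockout lay under every control, against 1.93% of tested genes; without control 4, Alox5ap separated as well (3.59%). Without knockout 3, edgeR again called 0 of 9, against 1.08% of tested genes, and the log2 fold changes ran from −1.30 to −0.45. Among the fits on genotype alone that each left out 1 library, the one without knockout 1 gave each of the 9 its most negative value, −1.88 to −1.0, and a call for Rgs13. With limma-voom and quality weights the differences were smaller and none was called, at −1.24 for Rgs13, −0.76 for Dclk1, −0.58 for Pou2f3, −0.54 for Alox5ap, −0.50 for Hpgds, −0.46 for Trpm5, −0.37 for Avil, −0.21 for Sh2d6 and −0.03 for Ptgs1.

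Within each library set the knockouts were lower more uniformly. All 9 tested markers were lower in both knockouts than in both controls of set 1, against 22% of tested genes, and 7 of the 9 in set 2, against 18%. The 7 were Pou2f3, Trpm5, Rgs13, Dclk1, Avil, Sh2d6 and Alox5ap, and they are the 7 separated in both sets, where 4.45% of tested genes were lower in both. Il25, which was not tested, was lower in set 1 as well and brings that number to 10. Control 2 and knockout 2 each had 8 Il25 counts, so only the scaling separated them. Without knockout 3 the numbers were 10, 7 and 7, against 21.8%, 36.6% and 9.67% of tested genes, set 2 then having knockout 4 alone. Scaled by total counts in place of TMM, the numbers were 7 in set 1, 6 in set 2 and 5 in both, against 7.21%, 8.28% and 1.21% of tested genes. With library set as a term of the model, all 9 tested markers were lower at an unadjusted p under 0.05 (3.3% of tested genes), with log2 fold changes of −1.57 to −0.69, and 1 of them, Rgs13, was called (0.179% of tested genes). Leaving out knockout 3 from that fit gave 2 calls, Rgs13 and Alox5ap, against 1.45% of tested genes. DESeq2 with the same term called 7 of the 9, all but Ptgs1 and Hpgds, against 1.47%.

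The markers also differed between the library sets, a comparison added after the data were seen, in which 13 genes (0.0967%) passed the cutoffs with genotype as a term, 12 of them lower in set 2. The count was 57 without knockout 3 and 0 to 5 without any other library. Among the markers 1 was called, Sh2d6. All 9 were lower in set 2 at an unadjusted p under 0.05, against 4.85% of tested genes, with log2 fold changes of −1.80 to −0.81 and a median of −1.27. Ptgs1 and Sh2d6 did not overlap between sets, against 3.32% of tested genes. Untested Il25 did not overlap either, but knockout 1 had only 3 counts, no more than a count of 0 allows, so its sets are not separated beyond the floor. Without knockout 3, 5 of the 9 were called, Sh2d6, Trpm5, Ptgs1, Avil and Alox5ap, against 0.405% of tested genes, and no marker was called when any of controls 1 to 4, knockout 1 or knockout 4 was left out. A test of whether the genotype difference itself varied with library set gave no marker an adjusted p of 0.05 or less, the lowest unadjusted p being 0.0891 for Rgs13 (log2 scale difference −0.75, adjusted p = 0.867); without knockout 3 it was again lowest for Rgs13 (−0.78, unadjusted p = 0.0739, adjusted p = 0.651).

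**Figure D2:**
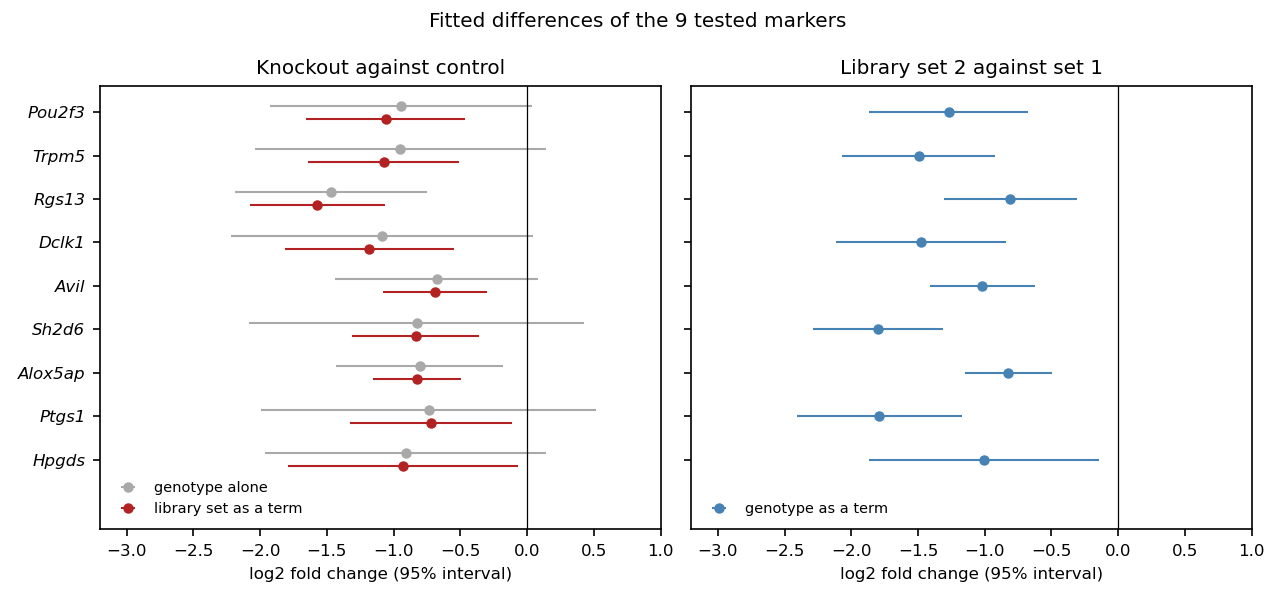
Fitted log2 fold changes (horizontal axes) of the 9 tested tuft cell markers with 95% intervals from edgeR; left, knockout against control with genotype alone (grey) or with library set as a term (red), and right, library set 2 against set 1. All points lie under 0, and with library set as a term all 9 genotype intervals lie under 0.

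Pou2f3 (ENSMUSG00000032015, mm10 chromosome 9, 43123939 to 43210369, minus strand) encodes the POU-domain factor without which tuft cells do not form. It had 28.5, 23.5, 16.3 and 10.1 normalized CPM in controls 1 to 4 and 20.1, 10.3, 5.07 and 5.05 in knockouts 1 to 4. Mean levels were 19.6 ± 8.07 in controls and 10.1 ± 7.11 in knockouts (SD, n = 4), and knockouts 1 and 2 lay above the lowest control (log2 fold change −0.94, SE 0.45, adjusted p = 0.751 by edgeR). Without knockout 3 the log2 fold change was −0.73 (edgeR adjusted p = 0.621), and the fits that each left out 1 library ran from −1.51 without knockout 1 to −0.70 without control 1. Its share of the markers' summed counts stayed between 3.04% and 4.21%, the narrowest relative range among the 10.

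Trpm5 (ENSMUSG00000009246, chromosome 7, 143069153 to 143094642, minus strand) encodes the calcium-activated cation channel that depolarises taste and tuft cells. Its levels were 69.8, 83.1, 39.4 and 25.9 normalized CPM in controls 1 to 4 and 52.5, 34.8, 8.37 and 16.9 in knockouts 1 to 4. Knockouts 1 and 2 exceeded control 4, so the genotypes overlapped (log2 fold change −0.95, SE 0.50, adjusted p = 0.796 by edgeR). The log2 fold change without knockout 3 was −0.66 (edgeR adjusted p = 0.686), the range with 1 library left out at a time being −1.43 without knockout 1 to −0.66 without knockout 3. Between the library sets the level was 60.04 ± 20.98 in set 1 and 22.6 ± 13.3 in set 2 (SD, n = 4; log2 fold change −1.50, SE 0.26, adjusted p = 0.0663 by edgeR), a difference that passed without knockout 3 (−1.28, adjusted p = 0.0186). Of its exon bases 3.4% are shared with Tssc4 on the other strand.

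Rgs13 (ENSMUSG00000051079, chromosome 1, 144138654 to 144177372, minus strand) encodes a regulator of G protein signalling, which shortens the signal of activated Gα subunits. In the fit over all 8 libraries it had the largest log2 difference between genotypes of the 9, at 141, 123, 113 and 82.3 normalized CPM in controls 1 to 4 and 72.5, 42.6, 25.7 and 24.8 in knockouts 1 to 4. All 4 controls exceeded all 4 knockouts, with means of 115 ± 24.6 and 41.4 ± 22.3 (SD, n = 4; two-sided exact permutation p = 0.0286, the smallest that 4 against 4 allows). The separation was not kept on CPM by total counts, where knockout 1 exceeded control 4. It did not pass in edgeR (log2 fold change −1.47, SE 0.33, adjusted p = 0.171), and without knockout 3 the log2 fold change was −1.30 with adjusted p = 0.115; with 1 library left out at a time the range was −1.88 without knockout 1 to −1.29 without knockout 4. With library set as a term it was called (log2 fold change −1.57, SE 0.23, adjusted p = 0.0254). That call was lost when any of controls 1 to 4, knockout 2 or knockout 4 was left out (edgeR adjusted p = 0.0645 to 0.144) and held without knockout 1 (0.00626) and without knockout 3 (0.0082). Leaving out knockout 1 from the fit without that term gave a call as well (log2 fold change −1.88, adjusted p = 0.0283).

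The 250 bases before the start of Rgs13 are shown because it is the marker that separated the genotypes, and those of Sh2d6 because it is the one called between library sets; both are RefSeq sequences of GRCm38.p6 on the minus strand. The window of Rgs13 is chr1:144177373-144177622 and that of Sh2d6 chr6:72520037-72520286, which lies inside the span of longer Sh2d6 transcripts. The third sequence is a stretch of 30 bases from Hpgds, chr6:65144886-65144915 on the minus strand, across the start of the gene in the count table, with the octamer ATGCAAAT in capitals. The octamer lies 174 bases before the RefSeq start and inside the first exon of Hpgds in the count table, so it is upstream of the gene in 1 annotation and exonic in the other.
Rgs13: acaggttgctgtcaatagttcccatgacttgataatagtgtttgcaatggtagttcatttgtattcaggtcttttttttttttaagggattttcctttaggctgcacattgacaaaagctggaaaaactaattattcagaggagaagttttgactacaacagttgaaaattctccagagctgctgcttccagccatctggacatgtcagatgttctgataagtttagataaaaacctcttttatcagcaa
Sh2d6: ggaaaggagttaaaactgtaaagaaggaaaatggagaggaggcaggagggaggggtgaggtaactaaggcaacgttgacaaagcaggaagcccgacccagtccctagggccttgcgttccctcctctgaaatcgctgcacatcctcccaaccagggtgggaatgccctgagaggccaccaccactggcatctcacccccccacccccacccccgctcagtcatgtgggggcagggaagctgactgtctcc
Hpgds: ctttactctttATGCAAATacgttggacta
The octamer, the classical recognition sequence of POU-domain factors of the Oct family, was searched as ATGCAAAT and, for the other strand, ATTTGCAT. Of the 10 markers 7 had a promoter window in the RefSeq table, and 1 of the 7, Hpgds, held the octamer, within that exon. It was found in 4 of 38 other tuft cell genes and in 1.81% of the 27025 genes of the table. Whether the matches outside the markers lie in exons was not examined, and the difference in share was not tested. A match is a description of letters and no evidence of binding.

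Dclk1 (ENSMUSG00000027797, chromosome 3, 55242364 to 55539068, plus strand) encodes a microtubule-associated kinase and is the most used antigen for staining tuft cells. It was found at 126, 138, 66.3 and 42.04 normalized CPM in controls 1 to 4 and 90.7, 42.1, 27.8 and 14.1 in knockouts 1 to 4. Knockout 1 exceeded controls 3 and 4, and knockout 4 held the lowest value (log2 fold change −1.09, SE 0.52, adjusted p = 0.750 by edgeR). With library set as a term the estimate was similar and its error smaller (log2 fold change −1.18, SE 0.29, adjusted p = 0.214). Without knockout 3 the fit on genotype alone gave −0.93 (edgeR adjusted p = 0.706), the range with 1 library left out at a time being −1.73 without knockout 1 to −0.80 without knockout 4.

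Avil (ENSMUSG00000025432, chromosome 10, 127000709 to 127020994, plus strand) encodes advillin, an actin-binding protein of the villin family found in the microvillar brush. Its levels were 70.4, 93.9, 42.6 and 40.1 normalized CPM in controls 1 to 4 and 62.3, 41.6, 27.9 and 22.4 in knockouts 1 to 4. The genotypes overlapped (log2 fold change −0.68, SE 0.35, adjusted p = 0.788 by edgeR). The log2 fold change without knockout 3 was −0.56 (edgeR adjusted p = 0.651), and the fits that each left out 1 library ran from −1.0 without knockout 1 to −0.41 without control 2. It shares 4.9% of its exon bases with Tsfm on the other strand.

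Sh2d6 (ENSMUSG00000052631, chromosome 6, 72513644 to 72521634, minus strand) encodes an SH2-domain adaptor. It had 128, 180.4, 53.5 and 35.8 normalized CPM in controls 1 to 4 and 111, 63.5, 23.1 and 26.4 in knockouts 1 to 4. All 4 libraries of set 1 exceeded all 4 of set 2, with means of 121 ± 48.3 and 34.7 ± 13.6 (SD, n = 4; log2 fold change −1.80, SE 0.22, adjusted p = 0.0433 by edgeR), whereas the genotypes overlapped (log2 fold change −0.83, SE 0.57, adjusted p = 0.889). Without knockout 3 the genotype estimate was −0.57 (edgeR adjusted p = 0.836), the range with 1 library left out at a time being −1.39 without knockout 1 to −0.37 without control 2.

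Alox5ap (ENSMUSG00000060063, chromosome 5, 149264767 to 149288153, plus strand) encodes the membrane protein that presents arachidonic acid to 5-lipoxygenase, the first step of leukotriene synthesis. Levels of 53.6, 60.2, 36.9 and 30.2 normalized CPM in controls 1 to 4 and 35.9, 31.2, 18.97 and 17.3 in knockouts 1 to 4 were measured. Knockouts 1 and 2 lay above control 4 and all other knockouts below it, and Alox5ap had the narrowest range over libraries, 3.47-fold. It did not pass in edgeR (log2 fold change −0.80, SE 0.29, adjusted p = 0.543), and with library set as a term the adjusted p was 0.0678 (log2 fold change −0.82). Leaving out knockout 3, the fit on genotype alone gave −0.69 (edgeR adjusted p = 0.371), and the fits that each left out 1 library ran from −1.0 without knockout 1 to −0.64 without control 2. Of its exon bases 13.3% are shared with Gm19719 on the other strand; whether the counting used strand is not given in the sources used here.

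Ptgs1 (ENSMUSG00000047250, chromosome 2, 36230426 to 36252272, plus strand) encodes cyclooxygenase 1, which turns arachidonic acid into the precursor of the prostaglandins. It had 30.4, 29.8, 10.98 and 5.94 normalized CPM in controls 1 to 4 and 21.7, 13.8, 3.42 and 6.94 in knockouts 1 to 4. Set 1 exceeded set 2 without overlap, with 23.9 ± 7.84 against 6.82 ± 3.15 (SD, n = 4; log2 fold change −1.79, SE 0.28, adjusted p = 0.0533 by edgeR), and the difference passed without knockout 3 (−1.64, adjusted p = 0.0186). In set 2 knockout 4 exceeded control 4, and the genotype difference did not pass (log2 fold change −0.74, SE 0.57, adjusted p = 0.913). Without knockout 3 the genotype estimate was −0.45 (edgeR adjusted p = 0.852), the range with 1 library left out at a time being −1.24 without knockout 1 to −0.43 without control 1.

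Hpgds (ENSMUSG00000029919, chromosome 6, 65117293 to 65144908, minus strand) encodes the haematopoietic prostaglandin D synthase, which makes prostaglandin D2 from that precursor. Its levels were 27.5, 38.8, 13.3 and 20.98 normalized CPM in controls 1 to 4 and 22.3, 13.9, 2.71 and 14.1 in knockouts 1 to 4. The range was the widest of the 9, 14.3-fold, and its lower end was knockout 3 alone (log2 fold change −0.91, SE 0.48, adjusted p = 0.797 by edgeR). The log2 fold change without knockout 3 was −0.59 (adjusted p = 0.526), and the fits that each left out 1 library ran from −1.27 without knockout 1 to −0.59 without knockout 3.

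Il25 (ENSMUSG00000040770, chromosome 14, 54932695 to 54935837, plus strand), the cytokine output of the cell, was near the floor of detection. It received 35, 8, 0 and 0 counts in the controls and 3, 8, 0 and 1 in the knockouts. Control 1 held most of these counts, and in set 2 only knockout 4 held any, 1 count. A count of 0 allows up to 3 counts, which is 0.27 normalized CPM in control 3 and 0.353 in knockout 3, so no fold is given.

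Since the markers differed in the same direction, each one's share of their summed counts was compared, a measure that does not depend on library scaling. Rgs13 made up 20.8, 15.98, 28.8 and 28.04% in controls 1 to 4 and 14.8, 14.5, 17.96 and 16.8% in knockouts 1 to 4. Its share was lower in the knockouts within each library set, most in set 2, and overlapped between genotypes over all 8 libraries. Avil made up 10.4, 12.2, 10.9 and 13.7% in controls 1 to 4 and 12.7, 14.1, 19.5 and 15.1% in knockouts 1 to 4. This share was higher in the knockouts within each set, and the genotypes again overlapped over all 8. Alox5ap and Sh2d6 took a higher share in the knockouts of set 2 without doing so in set 1, and the other 6 shares overlapped within both sets. Shares add up to the whole, so a lower share of 1 marker raises those of the others.

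**Figure D3:**
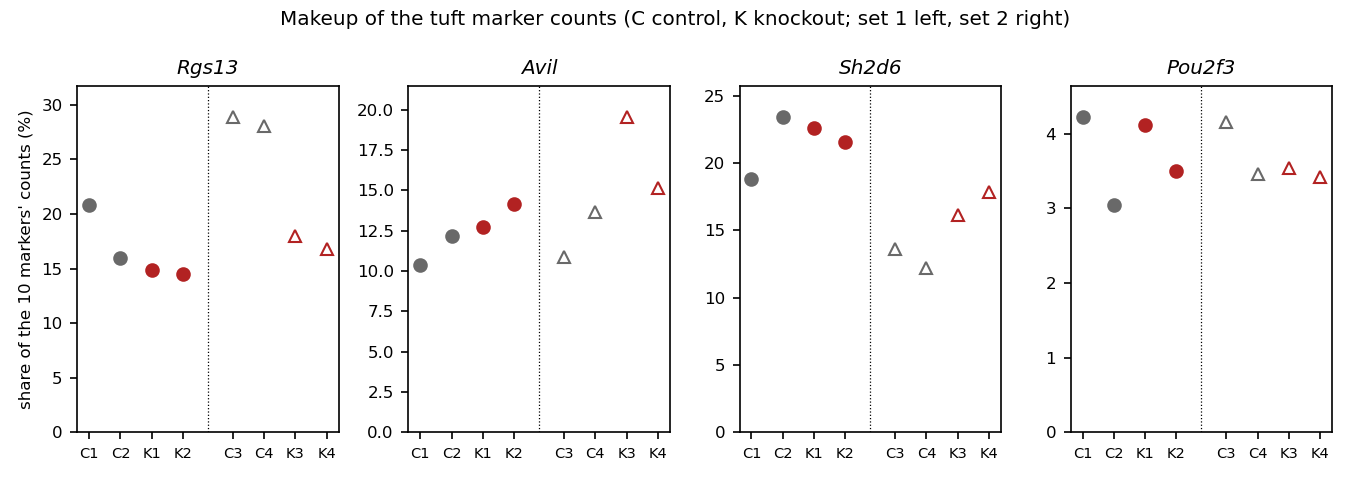
Share (%) of the 10 tuft markers' summed counts that fell on Rgs13, Avil, Sh2d6 and Pou2f3 in each library (C control, grey; K knockout, red; library set 1 left, filled circles; set 2 right, open triangles). The Rgs13 share is 28.8% and 28.04% in controls 3 and 4 and 17.96% and 16.8% in knockouts 3 and 4.

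Across the 8 libraries the markers followed each other. Pearson's r of log2(normalized CPM + 1) over the 45 pairs of markers had a median of 0.88 (0.51 to 0.97), and of 0.91 (0.65 to 0.97) over the 36 pairs without Il25; without knockout 3 the medians were 0.86 and 0.90. Against the mean of the other 9, r was highest for Trpm5 (0.97) and lowest for Il25 (0.67) and Hpgds (0.80), while the median r of each marker with all other tested genes lay between 0.0171 and 0.0413. The points share library, depth and scaling, and these values are descriptions over 8 libraries.

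Of the 13348 tested genes outside the gene lists, 5 were most like the mean of the markers by the same measure. Nebl, the actin-binding nebulette, led with r = 0.991 over 8 libraries, at 34.96, 34.9, 15.8 and 13.3 normalized CPM in controls 1 to 4 and 23.3, 15.7, 3.89 and 6.27 in knockouts 1 to 4. Pik3r5, a regulatory subunit of the phosphoinositide 3-kinase that G proteins activate, had r = 0.982, and Ptpn18, a protein tyrosine phosphatase, also 0.982. Adcy5, an adenylyl cyclase, had r = 0.979 at 9.93, 8.20, 1.98 and 1.66 normalized CPM in controls 1 to 4 and 4.23, 2.88, 0.353 and 0.669 in knockouts 1 to 4. Ly6g6f, a Ly6-family surface protein, had r = 0.978. Nebl, Pik3r5, Ptpn18 and Adcy5 are among the 13 genes called between library sets.

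Other genes of the tuft cell programme were read from 3 lists, 44 genes in all, of which 34 were tested. By genotype 0 of 34 were called by edgeR (0 by DESeq2), 4 were lower (2.53% of all tested genes) and 0 higher at an unadjusted p under 0.05, and 32 had a lower fitted level, with a median log2 fold change of −0.70. Between library sets 3 were called, Plcb2, Matk and Nrgn (13 without knockout 3, where 0.405% of tested genes were, and 0 or 1 without any other library), and 26 were lower in set 2 at an unadjusted p under 0.05 (4.85% of all tested genes), with a median of −1.32 against 0.00014 over all tested genes. Within the library sets, 27 of the 44 were lower without overlap in the knockouts of set 1, 17 in set 2 and 12 in both, against 22%, 18% and 4.45% of tested genes, and 0 were higher in both. Without knockout 3 these were 27, 25 and 17, against 21.8%, 36.6% and 9.67%. Scaled by total counts, 15, 13 and 7 of them were lower, against 7.21%, 8.28% and 1.21%. Their summed level was 1056, 1218, 621 and 463 normalized CPM in controls 1 to 4 and 846, 569, 319 and 330.0 in knockouts 1 to 4. It overlapped between genotypes, and controls 1 and 2 were again highest. The within-set counts run over all 44 genes, including untested ones near the floor, while the shares beside them run over tested genes only. Gnb3, for example, counted as lower in set 1 with 23 and 1 counts in controls 1 and 2 and 0 in knockouts 1 and 2.

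In the chemosensory cascade, 8 of 11 genes were tested, 7 of them with a lower fitted level in the knockouts. Gng13, the Gγ subunit of taste signalling, had 10.6, 14.2, 6.39 and 6.97 normalized CPM in controls 1 to 4 and 8.34, 4.09, 0.943 and 3.35 in knockouts 1 to 4 (log2 fold change −1.16, SE 0.50, adjusted p = 0.672 by edgeR; without knockout 3 −0.86, adjusted p = 0.396). Chtf18 on the other strand shares 51.6% of its exon bases, so its counts are uncertain. Plcb2, the phospholipase that the G protein activates, had 15.3, 23.3, 4.14 and 6.33 normalized CPM in controls 1 to 4 and 10.2, 7.89, 1.77 and 2.37 in knockouts 1 to 4 and was called between library sets (log2 fold change −1.98, SE 0.26, adjusted p = 0.0457). Itpr2, an IP3 receptor that releases calcium from stores, was at 42.6 ± 17.95 in controls and 26.2 ± 7.20 in knockouts (SD, n = 4). Gnat3, the Gα subunit gustducin, had its highest value in knockout 4, at 3.71, 2.15, 0.180 and 0.713 normalized CPM in controls 1 to 4 and 0.894, 0.806, 3.06 and 6.02 in knockouts 1 to 4, and did not pass (log2 fold change 0.65, SE 0.82, adjusted p = 0.962 by edgeR). Gnb3 and the taste receptor subunits Tas1r1 and Tas1r3 were too low to be tested.

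Of the other enzymes of eicosanoid synthesis 6 of 11 were tested, and 5 had a lower fitted level in the knockouts. Ltc4s, leukotriene C4 synthase, had 19.4, 24.4, 11.5 and 7.52 normalized CPM in controls 1 to 4 and 17.9, 9.45, 4.36 and 4.75 in knockouts 1 to 4, with controls 1 and 2 and knockout 1 highest (log2 fold change −0.78, SE 0.47, adjusted p = 0.851 by edgeR; without knockout 3 −0.56, adjusted p = 0.735), and 26.4% of its exon bases are shared with Gm26542 on the other strand. Ptges3, a co-chaperone that is also a prostaglandin E synthase and is broadly expressed, was at 40.7 ± 6.06 in controls and 35.1 ± 16.96 in knockouts (SD, n = 4). Lta4h, which makes leukotriene B4, was at 25.4, 26.7, 28.5 and 23.4 normalized CPM in controls 1 to 4 and 23.00, 20.2, 8.95 and 26.6 in knockouts 1 to 4, and knockout 3 alone stood low. Ptgs2, the inducible cyclooxygenase, and Ptges, Ptgds, Tbxas1 and Ptgis were too low to be tested.

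The third list holds 22 genes described in tuft cells, such as kinases, surface receptors and transcription factors; 20 were tested and all 20 had a lower fitted level in the knockouts. Kctd12, a partner of GABA-B receptors, had 159, 129, 103 and 58.6 normalized CPM in controls 1 to 4 and 113, 57.4, 13.5 and 34.3 in knockouts 1 to 4 (log2 fold change −1.04, SE 0.51, adjusted p = 0.773 by edgeR; without knockout 3 −0.72, adjusted p = 0.615), and its counts are uncertain since 62.8% of its exon bases are shared with Gm26778 on the other strand. Fyb, an adaptor of Src-family signalling, was at 75.7 ± 34.4 in controls and 46.6 ± 19.9 in knockouts (SD, n = 4). Matk, a kinase that inhibits Src-family kinases, was called between library sets, at 49.6, 90.6, 19.6 and 9.66 normalized CPM in controls 1 to 4 and 58.2, 34.1, 3.65 and 10.9 in knockouts 1 to 4 (log2 fold change −2.44, SE 0.37, adjusted p = 0.0457 by edgeR). Nrgn, the calmodulin-binding neurogranin, was called as well, at 25.02, 20.2, 4.32 and 2.53 normalized CPM in controls 1 to 4 and 21.9, 12.04, 2.83 and 3.59 in knockouts 1 to 4 (log2 fold change −2.56, SE 0.28, adjusted p = 0.0314). Siglecf, a sialic acid-binding surface lectin, had 39.6, 43.8, 19.9 and 6.18 normalized CPM in controls 1 to 4 and 29.5, 18.6, 0.118 and 18.3 in knockouts 1 to 4, 1 count in knockout 3 against 301 in knockout 4.

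**Figure D4:**
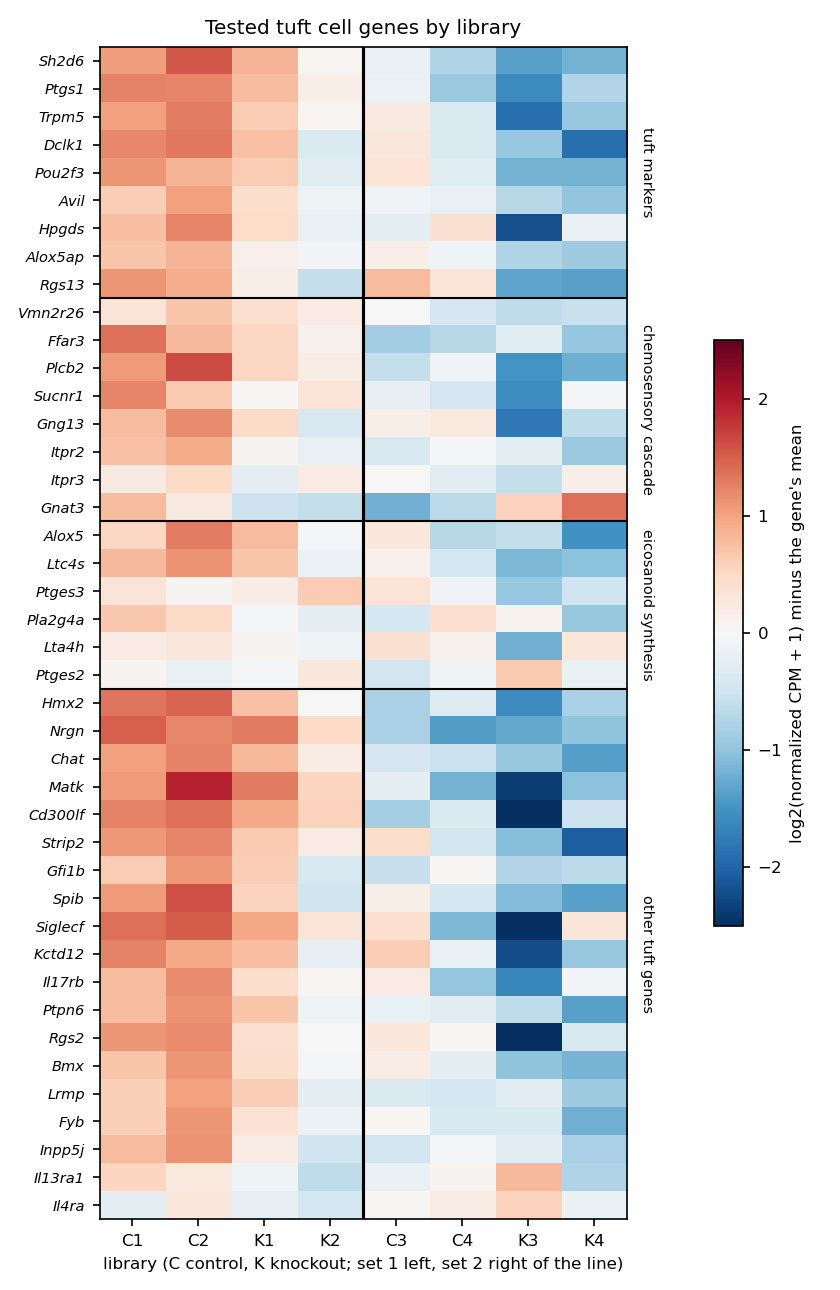
Level of the 9 tested tuft markers and of other tested tuft cell genes (rows, by list) in the 8 libraries (columns; C control, K knockout; library set 1 left of the vertical line). Colour is log2(normalized CPM + 1) minus the gene's mean over the libraries; controls 1 and 2 are red in nearly every row and knockouts 3 and 4 mostly blue.

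Markers of the sorted cell type had higher fitted levels in library set 2, though none passed the cutoffs. The 10 Paneth cell markers summed to 42015, 83479, 117643 and 112553 normalized CPM in controls 1 to 4 and 57976, 50573, 179567 and 57515 in knockouts 1 to 4, with 7 of 10 higher in set 2 at an unadjusted p under 0.05 and 0 lower, where 5.29% of all tested genes were higher and 4.85% lower. Set 1 ranged from 42015 to 83479 and set 2 from 57515 to 179567 normalized CPM, knockout 4 lying inside the range of set 1. Between genotypes the Paneth sums overlapped, with 5 of 10 fitted higher and 5 lower. Goblet cell markers were higher in set 2 for 5 of 10 genes at an unadjusted p under 0.05, and by genotype 2 of 10 were lower among knockouts and 0 higher at that limit. The 12 enteroendocrine markers, another Cd24+ secretory type, summed to 904, 1258, 1327 and 897 normalized CPM in controls 1 to 4 and 821, 82.1, 1014 and 292 in knockouts 1 to 4, 7 of 12 lying lower in knockouts (unadjusted p under 0.05, against 2.53% of tested genes lower and 4.35% higher), with knockout 2 lowest. Of 6 stem cell markers 3 were lower and 1, Axin2, higher in the knockouts at that limit, and of 5 tested enterocyte markers 2 were lower and 0 higher. Epcam and Cd24a, the genes of the sort, had log2 fold changes of −0.12 and 0.16 between library sets (edgeR adjusted p = 0.832 and 0.826). The part of these cell types in the tuft marker differences was not tested.

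Several tuft markers are also made by blood cells, Hpgds, Alox5ap and Rgs13 among them by mast cells, so markers of those cells were read beside them. Of 10 mast cell markers 4 had 0 counts in all libraries, Fcer1a, Tpsb2, Tpsab1 and Cma1, and the list summed to 3, 2, 12 and 6 counts in the controls and 2, 6, 49 and 2 in the knockouts. In knockout 3, 48 of the 49 counts fell on Ms4a2. Macrophage markers summed to 0.426 to 2.88 normalized CPM, with C1qb at 0 throughout, and T and B cell markers to 0.518 to 1.97, with Cd3d at 0 throughout. Ptprc, the gene of CD45, was higher in every library of set 1 than in any of set 2, at 12.6, 8.44, 3.87 and 2.93 normalized CPM in controls 1 to 4 and 11.02, 9.04, 1.30 and 1.95 in knockouts 1 to 4. It did not differ detectably by genotype (log2 fold change −0.24, SE 0.64, adjusted p = 0.987 by edgeR; 0.0625 without knockout 3, adjusted p = 0.984) and was called between library sets (log2 fold change −2.09, SE 0.32, adjusted p = 0.0457). CD45 was among the antibodies of the stain; the gate drawn on it is not given in the sources used here.

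**Figure D5:**
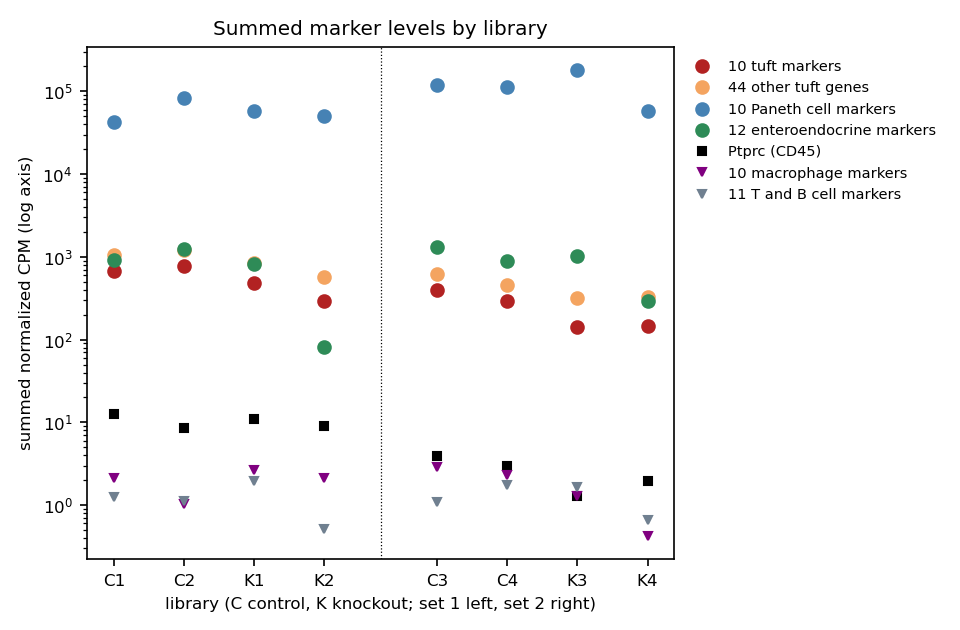
Summed normalized CPM (log axis) of the 10 tuft markers, 44 other tuft genes, 10 Paneth, 12 enteroendocrine, 10 macrophage and 11 T and B cell markers, and the level of Ptprc, in each library (C control, K knockout; library set 1 left of the dotted line). The tuft sums fall from 771 in control 2 to 143 in knockout 3, and macrophage and lymphoid sums stay under 3 normalized CPM.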

How the data were processed

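Paneth cell RNA of 4 controls and 4 knockouts was grouped by the labelled genotype, and replicates were numbered in the order of the labels without pairing. The titles of control 4 and knockout 4 share an animal number. Following Smart-seq2 without molecular identifiers, the authors aligned reads to mm10 with GSNAP and deposited a table of raw counts per gene (featureCounts 1.6.3, Ensembl annotation, uniquely mapped reads; bcl2fastq 2.19.1 per the labels). PCR copies are counted, so floors cover counting error only. The 92 spike-in rows held at most 7 counts and were left out. The closest 2 libraries differed by 10.8 in chi-square per degree of freedom, above sampling noise.

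Counts were tested with edgeR 4.0.16 in R 4.3.3 (quasi-likelihood, robust, TMM, filterByExpr with a minimum count of 10 and total of 15; 13439 genes), with DESeq2 1.42.0 and limma 3.58.1 as alternatives. A call needed adjusted p ≤ 0.05 with a log2 fold change of 0.5 or more either way. Standard errors were derived from the F statistic. FPKM used the exon length in the deposited table. Scripts were tested on simulated data. Named in the other tuft lists are genes past the cutoffs, genes whose genotypes do not overlap, and the 3 of each list with the highest mean FPKM, of which 1 is not reported here; the 5 genes most like the markers were ranked by Pearson's r. The members and lists were chosen with earlier results of these data known. Gene spans are from the deposited table; 96.8% equal those of GENCODE M21. Other experiments of the study were not analysed here.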

Additional observations from a re-analysis of the deposited data

How the results depend on the processing

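Genotype differences of the 9 tested markers kept their direction under all 26 alternatives each, with log2 fold changes of Rgs13 from −1.88 to −1.24 and of Ptgs1 from −1.24 to −0.03, the last without the call changing. Over genotype, 219 values stayed on their side of the cutoffs, 15 passed that had not, and 0 were lost; between library sets these were 108, 30 and 6, the 6 being Sh2d6 with 1 library left out (edgeR adjusted p = 0.0518 to 0.211). The summed level, log2 ratio −0.99, ran from −1.45 without knockout 1 to −0.68 with total counts. The genotype difference of Ptprc, −0.24, reversed to 0.0625 without knockout 3, neither value passing.

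Genes called by genotype, 25, became 290 with no filter on low counts, 13 with at least 10 counts in every library, 138 with DESeq2, 95 with limma-voom with quality weights and 38 at a 10% false discovery rate with no limit on the fold; leaving out 1 library gave 10 to 152, the most without knockout 3. Called markers, 0, became 2 with no filter (Rgs13 and Alox5ap), 1 with DESeq2, 1 with library set as a block, 7 with that block and DESeq2, 0 to 1 with 1 library left out and 0 to 2 with the block as well. Called other tuft genes, 0, became 1 with no filter. Markers at an unadjusted p under 0.05, 2, became 5 with no filter, 4 with DESeq2, 1 with limma-voom, 9 with the block, 9 with the block and DESeq2, 1 to 8 with 1 library left out and 7 to 9 with the block as well. Markers whose genotypes did not overlap, 1, became 0 on CPM by total counts, 10 within set 1 (Il25 only by the scaling), 7 within set 2 and 1 to 2 with 1 library left out. The causes were not tested.

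Between library sets, the 13 genes called became 325 with no filter, 55 with at least 10 counts in every library, 187 with DESeq2, 61 with limma-voom, 46 at a 10% false discovery rate and 0 to 57 with 1 library left out, the most without knockout 3. The 1 marker called became 2 with upper-quartile normalization, 10 with no filter, 7 with at least 10 counts in every library, 7 with DESeq2, 6 with limma-voom, 5 at a 10% false discovery rate and 0 to 5 with 1 library left out. The 3 other tuft genes called became 22, 10, 18, 12 and 9 under no filter, the count minimum, DESeq2, limma-voom and the 10% rate, and 0 to 13 with 1 library left out. The comparison of library sets, the block with 1 library left out or with DESeq2, the count of markers within sets by total counts and the values without knockout 3 of correlations, within-set counts, the interaction and genes other than the markers were chosen after seeing the data. No paired analysis was possible because the labels give no replicate numbers and do not say which mice were littermates; only control 4 and knockout 4 share an animal number. Depth limits Il25, at 0 to 35 counts, most.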
